A study of Mus musculus with 2 samples.

Results

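The NK-type receptors studied here are the C-type lectin-like receptors encoded by the Klr genes, the immunoglobulin-like receptors Cd160, Cd244a and Ncr1, and the adaptor chains Hcst, Tyrobp and Fcer1g through which many of them signal. Members were the probe sets whose annotated symbol begins with Klr followed by a letter from a to k and a digit, together with those named adaptors and receptors. The rule found 32 genes, each with 1 probe set, among 19505 genes on the array, and 26 of the 32 lie on mouse chromosome 6. The data came from Affymetrix arrays of total RNA of mouse CD8 T cells at day 5 of culture, with 1 array of Tc9 cells and 1 array of Tc1 cells.

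Both groups started as CD8 T cells of spleen and lymph node, primed through CD3 and CD28 for 3 days and then moved for 2 days to medium with 10 ng/mL human IL-2. The Tc9 cells, CD8 T cells driven toward interleukin 9 production, were polarized with 10 ng/mL IL-4, 1 ng/mL TGF-β and 20 µg/mL of an antibody that neutralizes interferon gamma. The Tc1 cells, the interferon gamma producing type, were polarized with 10 ng/mL human IL-2 instead. Strain, sex, age and the number of mice were not given in the labels used here. The source name of the Tc9 sample reads Tc1, while its title and description read Tc9, and the title was followed. Il9 had a log2 signal of 8.45 on the Tc9 array, against 4.82 on the Tc1 array. With 1 array per group there was no replicate check, no test was possible and no p-value is given, so each difference describes this pair of arrays.

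Lectin-like NK receptors bind MHC class I molecules, their relatives or other lectins on neighbouring cells. Inhibitory receptors carry a tyrosine motif that recruits phosphatases, whereas activating receptors lack signalling parts of their own and borrow an adaptor, and an adaptor can also be needed to bring its receptor to the surface. Activated CD8 T cells can acquire several of these receptors, of which NKG2D and CD94 with its NKG2 partners are the best known.

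Signals are log2 of the deposited intensities, and a difference is the log2 signal on the Tc9 array minus that on the Tc1 array. Detectable genes are those whose signal was 6.43 or more on at least 1 array, which is the middle value of all genes taken over both arrays together. Of the 32 members, 5 were detectable, namely Klrk1, Klrd1, Cd160, Fcer1g and Hcst, and 27 lay below this threshold on both arrays. Of the 5 detectable members, 3 were at least 2-fold lower on the Tc9 array and none was 2-fold higher. Klrk1 and Klrd1 reached the threshold only on the Tc1 array and Hcst only on the Tc9 array. These genes thus counted as detectable only through their brighter array. Over all 10147 detectable genes, 2.79% were at least 2-fold lower and 2.62% at least 2-fold higher. Counting all 32 members at their measured values, 7 passed 2-fold toward lower signals and none toward higher ones, against 2.08% lower and 1.8% higher of all genes. The median difference was -0.41 over the members and 0.0045 over all genes, and 24 of the 32 members had the lower signal on the Tc9 array, against 49.5% of all genes. Of the 27 members below the threshold on both arrays, 20 had the lower signal, against 55.7% of all such genes. With every dim value raised to the threshold, the median over the members was 0, so it rests on signals near background.

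**Figure D1:**
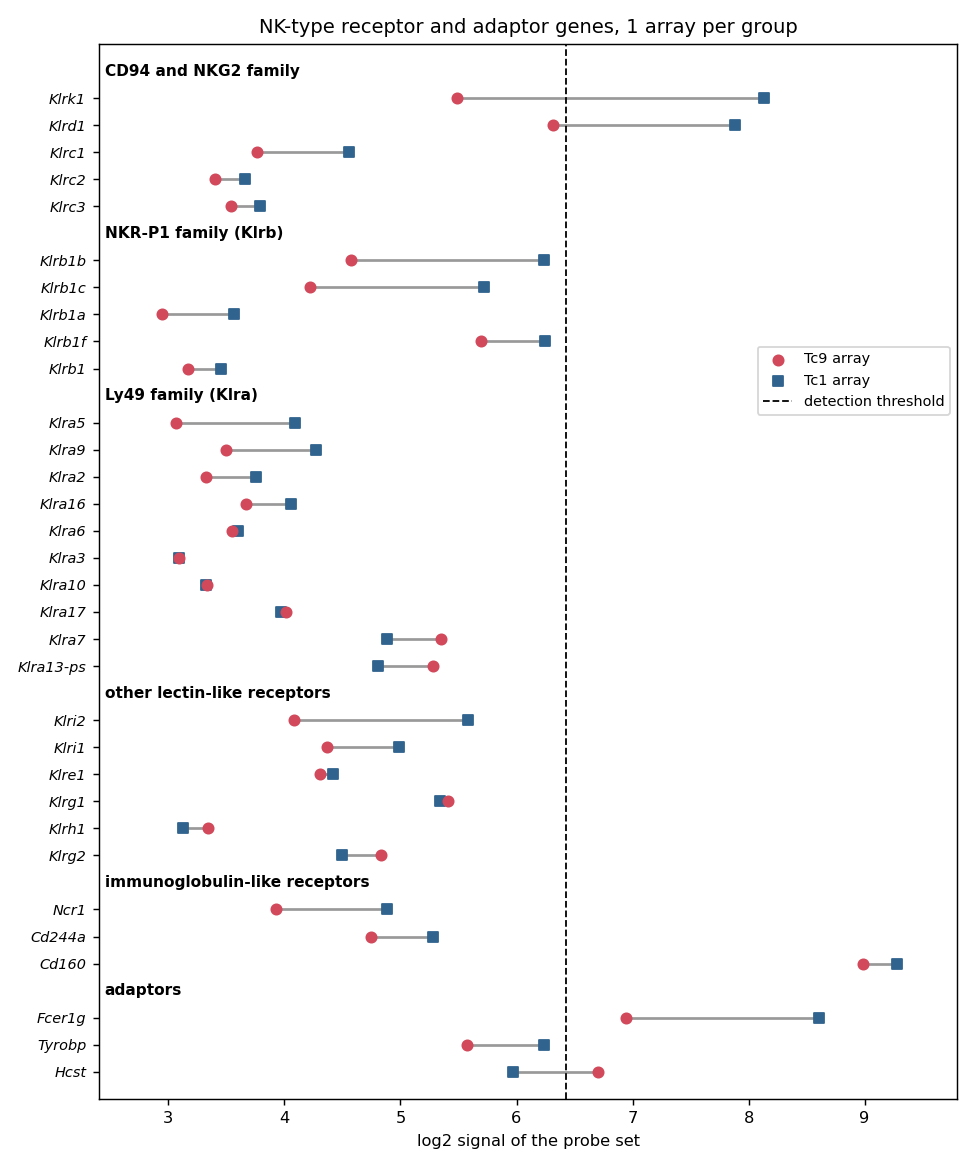
Log2 signal of each of the 32 members (horizontal axis) on the Tc9 array (circles) and the Tc1 array (squares), grouped by family, with the detection threshold of 6.43 as a dashed line. Only Klrk1, Klrd1, Cd160, Fcer1g and Hcst reach the line on either array, and Cd160 and Fcer1g reach it on both.

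Klrk1, which encodes the activating receptor NKG2D, showed the lowest difference of the members. Its log2 signal was 5.48 on the Tc9 array, against 8.13 on the Tc1 array. The Tc9 value lay below the detection threshold, so the signal was at least 3.26-fold lower. The measured difference was -2.65, and -1.70 with the Tc9 value at the threshold. Klrd1 encodes CD94, the chain that every NKG2A and NKG2C receptor needs. It had a log2 signal of 6.32 on the Tc9 array, just under the threshold, against 7.89 on the Tc1 array, and was at least 2.74-fold lower. With a stricter threshold from control probe sets its bound was at least 1.82-fold. In these bulk cultures fewer cells of a type and less RNA per cell cannot be told apart.

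The partners of CD94 were dim on both arrays. Klrc1, the inhibitory chain NKG2A, had a log2 signal of 3.77 on the Tc9 array, against 4.55 on the Tc1 array. Klrc2, the activating chain NKG2C, had 3.40 on the Tc9 array, against 3.66 on the Tc1 array, and Klrc3, a close relative, had 3.54 on the Tc9 array, against 3.79 on the Tc1 array. All 5 genes of the CD94 and NKG2 family therefore had the lower value on the Tc9 array, against 49.5% of all genes. For the 3 Klrc genes no fold can be given. Klrc1, Klrc2 and Klrc3 are similar in sequence, and probe sets may not separate them.

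The adaptor genes differed in direction. Fcer1g encodes the common gamma chain of Fc receptors, which carries an ITAM, the tyrosine motif that recruits Syk family kinases, and which mouse NK cells use with Ncr1 and Klrb1c products. It was above the threshold on both arrays, with a log2 signal of 6.94 on the Tc9 array, against 8.61 on the Tc1 array, and was 3.18-fold lower. Hcst encodes DAP10, the adaptor that NKG2D uses to reach phosphoinositide 3-kinase. Its log2 signal was 6.70 on the Tc9 array, against 5.97 on the Tc1 array, so it was at least 1.20-fold higher, with a measured difference of 0.73. It did not reach the stricter threshold from control probe sets on either array. Tyrobp encodes DAP12, the ITAM adaptor of activating Ly49 receptors and, in mice, of one NKG2D isoform. It was below the threshold on both arrays, at 5.57 on the Tc9 array and 6.24 on the Tc1 array. The receptor gene Klrk1 and its adaptor gene Hcst thus had differences of opposite sign.

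**Figure D2:**
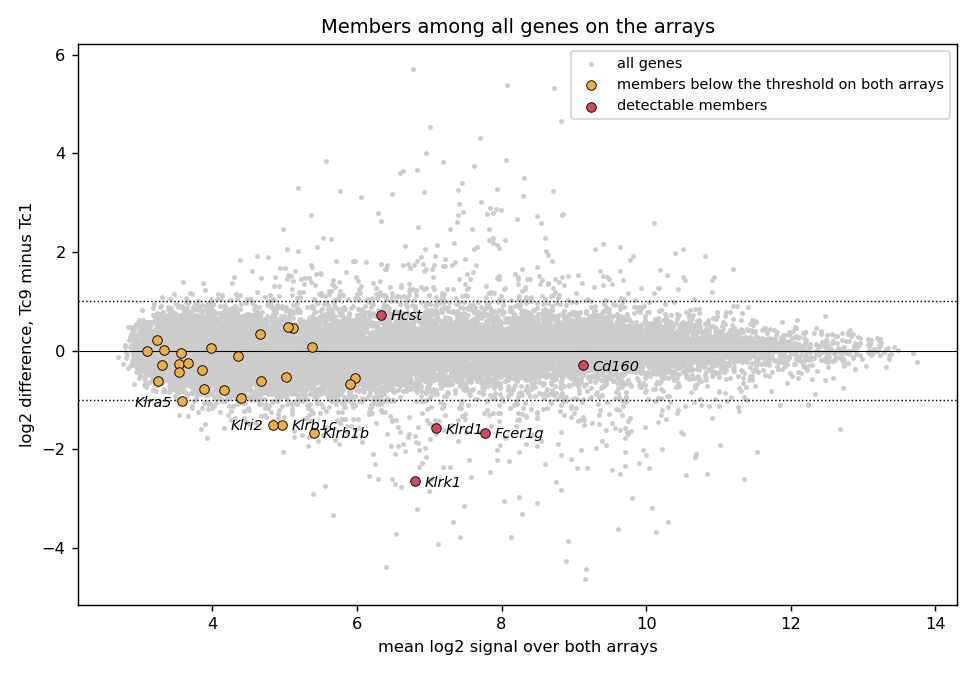
Log2 difference, Tc9 minus Tc1 (vertical axis), against the mean log2 signal over both arrays (horizontal axis) for all 19505 genes (grey) and the 32 members (coloured), with dotted lines at 2-fold. Klrk1, Klrd1 and Fcer1g lie below the lower line, at -2.65, -1.57 and -1.67, while Cd160 and Hcst lie between the lines at -0.30 and 0.73.

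Among the immunoglobulin-like receptors, Cd160 was well above the threshold on both arrays and hardly differed. Cd160, a lipid-anchored receptor for the TNF receptor family member HVEM, had a log2 signal of 8.98 on the Tc9 array, against 9.28 on the Tc1 array, a 1.23-fold lower signal. Cd244a encodes 2B4, a receptor for CD48, and had 4.75 on the Tc9 array, against 5.28 on the Tc1 array. Ncr1 encodes NKp46, a defining receptor of NK cells, and had 3.93 on the Tc9 array, against 4.88 on the Tc1 array. The last 2 genes were below the threshold on both arrays.

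The NKR-P1 receptors, encoded by Klrb genes, recognise Clr lectins encoded beside them. All 5 lay below the threshold on both arrays, and all 5 had the lower value on the Tc9 array, with a median difference of -0.62. Of all genes below the threshold on both arrays, 55.7% had the lower value there. Klrb1b, the inhibitory receptor for Clr-b, had a log2 signal of 4.58 on the Tc9 array, against 6.24 on the Tc1 array. Klrb1c, which carries the NK1.1 epitope in C57BL/6 mice, had 4.22 on the Tc9 array, against 5.72 on the Tc1 array. Klrb1a, Klrb1 and Klrb1f differed by less than 2-fold.

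The Ly49 receptors, encoded by Klra genes, bind classical MHC class I in mice. None of the 10 measured genes was detectable. Their log2 signals ran between 3.06 and 5.35 on the Tc9 array and between 3.10 and 4.88 on the Tc1 array, and 6 of the 10 had the lower value on the Tc9 array, with a median difference of -0.03. Klra5, at 3.06 on the Tc9 array and 4.09 on the Tc1 array, was the only one past 2-fold. Klra7, the inhibitory receptor Ly49G, was at 5.35 on the Tc9 array and 4.88 on the Tc1 array, and the pseudogene Klra13-ps was at 5.28 on the Tc9 array and 4.80 on the Tc1 array. The Ly49 genes are close relatives that can share probes, and other genes of the family were not analysed here.

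The 6 remaining lectin-like genes were also below the threshold on both arrays, with a median difference of -0.02. Klrg1, an inhibitory cadherin receptor that marks terminal effector CD8 T cells, had a log2 signal of 5.41 on the Tc9 array, against 5.34 on the Tc1 array. Klri2, which in mice pairs with the Klre1 product in an activating receptor, had 4.09 on the Tc9 array, against 5.58 on the Tc1 array. Klri1, the partner of Klre1 in an inhibitory receptor, had 4.37 on the Tc9 array, against 4.99 on the Tc1 array, and Klre1 itself had 4.31 on the Tc9 array, against 4.41 on the Tc1 array. Klrh1 and Klrg2 were slightly higher on the Tc9 array, by 0.22 and 0.34 on the log2 scale.

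Of the 27 members below the threshold on both arrays, 4 were at least 2-fold lower at measured values, namely Klrb1b, Klrb1c, Klri2 and Klra5. Of all 9358 genes below the threshold on both arrays, 1.3% were at least 2-fold lower and 0.919% at least 2-fold higher. Of the 4637 negative control probe sets below the threshold on both arrays, 5.52% were at least 2-fold lower and 5.24% at least 2-fold higher. Differences of this size thus also occurred in negative control probe sets. Near the 2-fold line, Klra5 had a difference of -1.03 and Ncr1 one of -0.95.

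Most members lie in the NK gene complex of chromosome 6, and the array measured 40 genes between Klrb1a and Klra2, the outermost members there in RefSeq order. Of these, 23 were members and 17 were other genes, many of them Clec2 lectins. Klrd1 and Klrk1 are neighbours in this order and were the only detectable members in it. The genes on either side were Klre1 and Klrc3, with differences of -0.11 and -0.25, both dim. Among the 17 other genes, 6 were detectable and 2 were at least 2-fold lower, and these also stood side by side. Cd69, the early activation lectin, had a log2 signal of 9.59 on the Tc9 array, against 12.09 on the Tc1 array, and was 5.65-fold lower. Clec2d, which encodes Clr-b, the ligand of the Klrb1b receptor, had 8.52 on the Tc9 array, against 9.99 on the Tc1 array, and was 2.77-fold lower. Between the pairs, Gabarapl1, an autophagy gene, had 9.47 on the Tc9 array, against 9.42 on the Tc1 array. The median difference was -0.43 over the 23 members and -0.0035 over the 17 other genes.

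**Figure D3:**
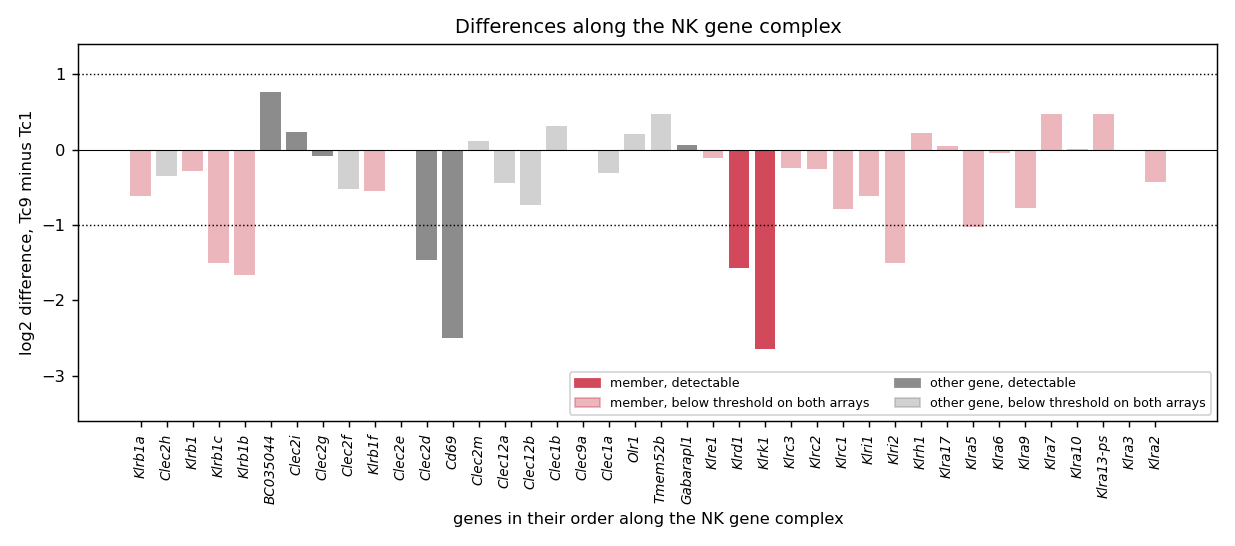
Log2 difference, Tc9 minus Tc1 (vertical axis), for 40 genes in their order along the NK gene complex (horizontal axis), members in red, other genes in grey, pale where neither array reached the threshold. Among the detectable genes, the pairs Clec2d with Cd69 and Klrd1 with Klrk1 lie below the 2-fold line, and none lies above it.

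Promoter windows of 250 bases before and 50 after each annotated start were taken from RefSeq (GRCm38.p6). Klrd1 was among the members without one, and 26 of the 32 members had windows. They were searched on both strands for the T-box letters TCACACC, the RUNX letters TGTGGT, the ETS letters CCGGAA, the STAT letters TTCNNNGAA and the AP-1 letters TGANTCA, since factors of these families act in effector T cells. Windows are shown for 4 detectable members, the lower Klrk1 and Fcer1g, the higher Hcst and, of the 2 windows of Cd160, the one that holds T-box letters. Each is written 5′ to 3′ on the gene's strand, with matches in capitals.
Klrk1 (chr6:129623815-129624114, minus strand): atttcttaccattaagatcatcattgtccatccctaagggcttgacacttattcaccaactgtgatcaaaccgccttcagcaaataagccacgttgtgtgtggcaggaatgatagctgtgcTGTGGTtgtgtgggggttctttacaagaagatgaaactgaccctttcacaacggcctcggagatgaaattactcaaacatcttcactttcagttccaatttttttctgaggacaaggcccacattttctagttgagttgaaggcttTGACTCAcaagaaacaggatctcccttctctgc
Fcer1g (chr1:171234300-171234599, minus strand): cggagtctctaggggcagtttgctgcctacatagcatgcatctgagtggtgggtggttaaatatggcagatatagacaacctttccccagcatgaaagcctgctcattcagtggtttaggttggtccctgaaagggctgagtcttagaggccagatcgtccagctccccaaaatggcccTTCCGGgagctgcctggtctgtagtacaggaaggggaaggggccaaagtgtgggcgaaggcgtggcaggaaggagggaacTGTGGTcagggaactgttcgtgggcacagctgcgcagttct
Hcst (chr7:30419805-30420104, minus strand): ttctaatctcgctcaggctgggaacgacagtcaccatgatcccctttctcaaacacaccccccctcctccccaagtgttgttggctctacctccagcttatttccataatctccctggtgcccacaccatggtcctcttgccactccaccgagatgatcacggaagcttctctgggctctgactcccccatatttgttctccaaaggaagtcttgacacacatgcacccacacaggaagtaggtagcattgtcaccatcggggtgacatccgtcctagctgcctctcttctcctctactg
Cd160 (chr3:96814472-96814771, minus strand): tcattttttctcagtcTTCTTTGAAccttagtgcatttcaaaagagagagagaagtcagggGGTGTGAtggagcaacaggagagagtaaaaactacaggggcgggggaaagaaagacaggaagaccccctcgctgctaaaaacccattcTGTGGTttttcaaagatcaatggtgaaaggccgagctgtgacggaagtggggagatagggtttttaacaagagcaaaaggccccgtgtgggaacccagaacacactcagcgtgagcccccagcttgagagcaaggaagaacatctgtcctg

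The Klrk1 window holds RUNX letters that begin at position -129 and AP-1 letters at position 17, counted from the annotated start as 0. The Fcer1g window holds ETS letters at position -71 and RUNX letters at position 9, and the Hcst window holds none of the 5 motifs. The Cd160 window holds STAT letters at position -234, T-box letters at position -189 and RUNX letters at position -101, and no matches overlapped in these windows. RUNX letters occurred in windows of 10 member genes, in 13 of the 32 member windows, and in 16.8% of all 32851 windows. Windows of 1 gene can overlap, and those of Klrc3 and of Klrc2 with the same layout share 289 of 300 bases, so the member windows are not independent. T-box letters occurred in 1 of the 32 member windows and in 3.98% of all windows, STAT letters in 5 and in 8.30%, AP-1 letters in 6 and in 7.81%, and ETS letters in 1 and in 14.9%. A match describes these letters only and shows no binding.

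Genes of factors from the T-box, RUNX and ETS families were measured on the same arrays. Tbx21, which encodes T-bet, a T-box factor of type 1 effector cells, had a log2 signal of 6.50 on the Tc9 array, against 9.56 on the Tc1 array, and was 8.30-fold lower. Eomes, its relative, had 8.15 on the Tc9 array, against 9.21 on the Tc1 array, and was 2.09-fold lower, or just under 2-fold when each array was centred on its median. Runx3, a RUNX factor of CD8 T cells, had 11.21 on the Tc9 array, against 11.71 on the Tc1 array, and differed by less than 2-fold. Ets1, an ETS factor of lymphocytes, had 11.86 on the Tc9 array, against 10.97 on the Tc1 array, and also differed by less than 2-fold. Of 10 measured transcription factors of NK and effector CD8 T cells, 3 were at least 2-fold lower and 2 higher at measured values. With dim values at the threshold, 2 were lower and 2 higher. The third gene lower at measured values was Prdm1, which encodes Blimp-1, at least 1.79-fold lower. The higher ones were Nfil3, a bZIP factor needed for NK cell development, 3.06-fold higher, and Id2, a repressor of E proteins, 2.27-fold higher.

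Ligands of the receptors can be expressed by T cells themselves. All 8 measured class I and related ligand genes were detectable and had the lower signal on the Tc9 array, against 43.7% of all detectable genes. Their median difference was -0.59, but only H2-Q4 passed 2-fold. It had a log2 signal of 9.81 on the Tc9 array, against 10.85 on the Tc1 array, a 2.05-fold lower signal that was just under 2-fold after median centring. H2-T23 encodes Qa-1, which presents leader peptides to CD94 with NKG2A, and had 10.90 on the Tc9 array, against 11.66 on the Tc1 array, a 1.69-fold lower signal. Of 9 NKG2D ligand genes looked for, 2 were measured, and Ulbp1 had 9.61 on the Tc9 array, against 10.40 on the Tc1 array. Of 11 ligand genes of other receptors, 1 was lower past 2-fold, Clec2d, and 1 was higher. That gene was Cdh1, which encodes E-cadherin, a ligand of Klrg1, with 8.71 on the Tc9 array, against 6.61 on the Tc1 array, a 4.29-fold higher signal. Cd48, the ligand of 2B4, had 10.32 on the Tc9 array, against 10.16 on the Tc1 array.

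Signalling genes downstream of the adaptors were read on the same arrays. None of 16 measured ITAM kinase and signalling genes, 14 of them detectable, passed 2-fold, and their median difference was 0.06. Over all detectable genes, 2.79% were at least 2-fold lower and 2.62% at least 2-fold higher. At these shares a list this short would hold few such genes or none. Syk, the kinase that ITAM adaptors recruit, had a log2 signal of 7.84 on the Tc9 array, against 8.54 on the Tc1 array, a 1.62-fold lower signal. Zap70, its relative in T cells, had 10.37 on the Tc9 array, against 9.81 on the Tc1 array, a 1.47-fold higher signal. The 4 other ITAM chains of T cells, the CD3 chains and Cd247, had differences between -0.29 and -0.04, where Fcer1g had -1.67. None of 4 phosphatase genes passed 2-fold, a list shorter still. Sh2d1a, which encodes SAP, the adaptor of 2B4 and related receptors, had 9.02 on the Tc9 array, against 10.31 on the Tc1 array, and was 2.46-fold lower.

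Of 16 measured receptors that pair with Fcer1g or Tyrobp, or belong to the same families, 5 were detectable. All 5 had the lower signal on the Tc9 array, against 43.7% of all detectable genes, with a median difference of -0.79. Of these 5, 1 passed 2-fold, Clec4e, the lectin Mincle, at least 2.21-fold lower. Of all 16, 11 had the lower value and 5 the higher. Interleukin 15 is a cytokine that induces NK receptors on CD8 T cells. Both measured receptor chains for it had the lower signal on the Tc9 array, as did 43.7% of all detectable genes. A link to the differences of the members was not tested. Il15ra had a log2 signal of 5.79 on the Tc9 array, against 7.19 on the Tc1 array, and was at least 1.69-fold lower. Il2rb, the shared signalling chain, had 12.64 on the Tc9 array, against 12.83 on the Tc1 array, a difference of only -0.19.

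**Figure D4:**
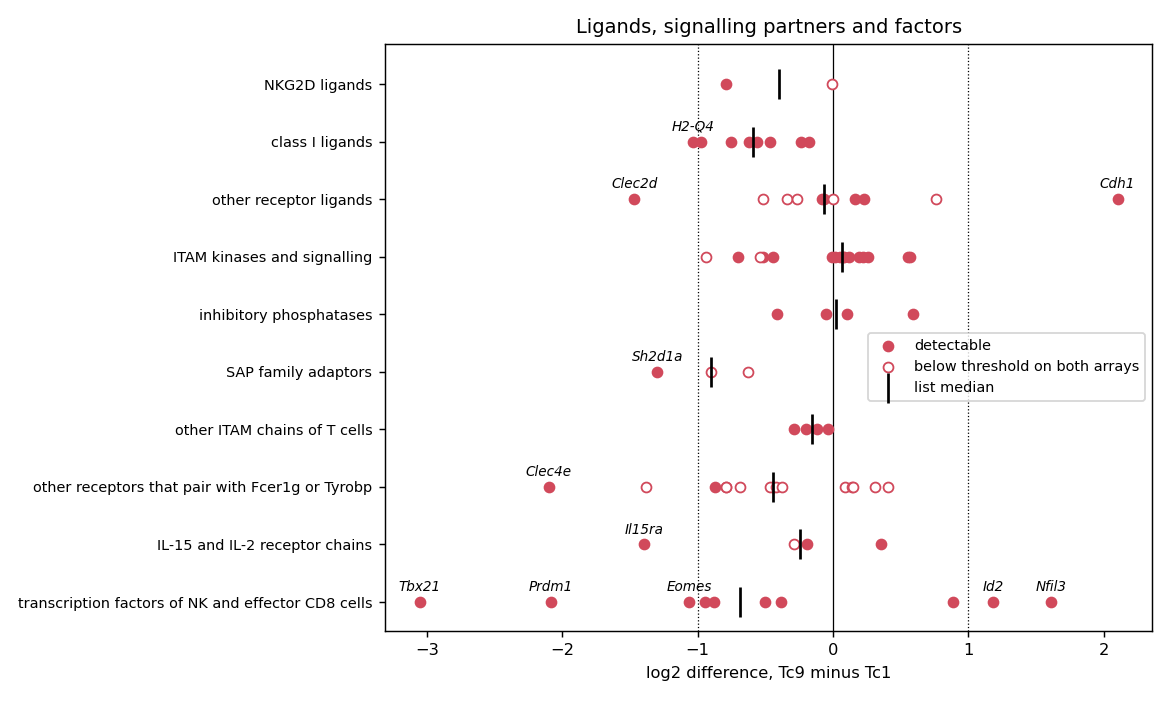
Log2 difference, Tc9 minus Tc1 (horizontal axis), of genes in 10 lists of ligands, signalling partners, cytokine receptor chains and transcription factors, filled where detectable and open where below the threshold on both arrays, with list medians as black bars. Detectable genes past 2-fold are named; Tbx21 lies lowest at -3.05 and Cdh1 highest at 2.10.

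Fcer1g, Tyrobp and several receptors are also expressed by NK cells, myeloid cells and mast cells, and markers of these and other cells were read on the same arrays. Of 8 NK cell markers, 4 were detectable, Cd160, Eomes, Gzma and Xcl1, which CD8 T cells also express, while Ncr1, Klrb1c, Tyrobp and Itga2 did not reach the threshold on either array. These 4 dim markers all had the lower value on the Tc9 array, with differences between -1.50 and -0.67. Of all genes below the threshold on both arrays, 55.7% had the lower value. Of the 8 markers, 6 had the lower value and 2 the higher. The summed intensity of the 8 was 2045 on the Tc9 array and 2447 on the Tc1 array, mostly from the 4 detectable ones. Cd160, Ncr1, Klrb1c and Tyrobp are also members. Of 10 monocyte and macrophage markers, 4 were detectable, with a summed intensity of 1048 on the Tc9 array and 1095 on the Tc1 array. Among them Fcgr3, an Fc receptor that uses the Fcer1g chain, had a log2 signal of 7.54 on the Tc9 array, against 8.41 on the Tc1 array, and Lyz2, a myeloid lysozyme, had 8.79 on the Tc9 array, against 8.36 on the Tc1 array. The only one of the 10 monocyte and macrophage markers past 2-fold was Mrc1, which was below the threshold on both arrays. Mrc1 had a log2 signal of 5.05 on the Tc9 array, against 3.55 on the Tc1 array. Of these 10 markers, 5 had the lower value on the Tc9 array and 5 the higher. Of 10 mast cell and basophil markers only Kit was detectable. The defining genes Fcer1a, Ms4a2 and Cpa3 were below the threshold on both arrays. The 9 measured B cell markers, 8 of them detectable, had a summed intensity of 3360 on the Tc9 array and 4700 on the Tc1 array, and all had the lower value on the Tc9 array, Ebf1 by only 0.01, a sign that turned after median centring. Over all genes, 49.5% had the lower value on the Tc9 array. Of 7 dendritic cell markers 2 were detectable, H2-Aa and Zbtb46, and Zbtb46 was at least 1.33-fold lower, while Itgax was higher by 1.06 on the log2 scale below the threshold on both arrays. Of 7 neutrophil markers 1 was detectable, Elane, with a difference of -0.64. Of the 7, 5 had the lower value on the Tc9 array and 2 the higher. The higher ones, S100a8 and S100a9, differed by 2.48 and 1.36 on the log2 scale without reaching the threshold. All 4 measured innate lymphoid cell markers were detectable, and Cd200r1, a receptor that T cells also express, was at least 1.24-fold higher. The 11 CD8 T cell core genes were all detectable, with a median difference of -0.26, and 2 of them were at least 2-fold lower. These were the surface receptors Cd5, with a log2 signal of 9.66 on the Tc9 array, against 11.31 on the Tc1 array, a 3.15-fold lower signal, and Cd6, with 8.98 on the Tc9 array, against 10.62 on the Tc1 array, a 3.11-fold lower signal. Of 4 measured CD4 T cell markers 3 were detectable and none passed 2-fold. Cd4 itself had a log2 signal of 8.74 on the Tc9 array, against 9.33 on the Tc1 array. Of 3 measured gamma delta T cell markers 2 were detectable and none passed 2-fold. The part of other cells in the differences of Klrk1, Klrd1 and Fcer1g was not tested.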

How the data were processed

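The authors deposited linear probe set intensities, 28846 per array. Total RNA was prepared with Trizol and biotin-labelled as whole-transcript sense target, per the labels' protocols. How probes were summarized, background-corrected and normalized is not given in the sources used here. The medians were 53.1 on the Tc9 array and 57.2 on the Tc1 array. The upper quartiles went the other way, with 346.2 on the Tc9 array and 330.5 on the Tc1 array. Values were taken as already normalized, which these figures do not settle, and log2 was taken without a further step. This affects every difference, as other scalings shift them all.

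The platform annotation gave 19572 probe sets 1 gene symbol. For the 55 genes with several, the brighter was used. All 32 members matched RefSeq (GRCm38.p6) by gene ID. A fold with 1 dim array uses the threshold in its place and reads "at least". The number of arrays limits the precision. The fold rule and motif search were tested on simulated data (Python 3.11.15, numpy 2.4.6, pandas 2.3.3).

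Members and lists were chosen with earlier results of these data known. Text names detectable members and those past 2-fold, list genes that are detectable and past 2-fold, and 7 fixed genes. Other dim members, Il9, Cd69, Gabarapl1, Runx3, Ets1, Ulbp1 and the cell markers were named after their values were seen. A planned search of protein motifs was not made, as protein sequences were not used here. Alternatives were quantile normalization, centring on the median or 75th percentile, adding 16 before log2, a threshold from control probe sets, dim values at the threshold, and means over probe sets.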

Additional observations from a re-analysis of the deposited data

How the results depend on the processing

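The 3 detectable members at least 2-fold lower, Klrk1, Klrd1 and Fcer1g, passed 2-fold at their values under all 7 alternatives, and no member was 2-fold higher under any of them. Means over probe sets could not change these differences, as each member had 1 probe set. The threshold from control probe sets changed only which genes counted as detectable. The count of members at least 2-fold lower, 7 at measured values, was 4 with 16 added before log2 and 3 with dim values at the threshold. The median difference of the members was -0.39 after quantile normalization, -0.34 when centred on the median, -0.48 when centred on the 75th percentile, -0.21 with 16 added and 0 with dim values at the threshold. Those centrings moved the median of all genes to 0.07 and -0.07, and the count of members with the lower signal on the Tc9 array, 24 at measured values, to 22 and 27. A threshold at the 95th percentile of the control probe sets, 7.02 on the Tc9 array and 7.30 on the Tc1 array, left 4 detectable members, without Hcst. With dim values at that threshold Klrk1 was at least 2.17-fold, Klrd1 at least 1.82-fold and Fcer1g at least 3.01-fold lower, since all 3 lay below it on the Tc9 array. Of 203 values of 29 named genes under the alternatives, 14 dropped under 2-fold and none changed direction past 2-fold. Of these drops, 8 came with dim values at the threshold, 3 with 16 added and 3 when centred on the median. The 203 include values that could not drop. These were the values under the control threshold or means over probe sets, and those of genes already under 2-fold. No paired analysis was possible because each group has 1 array, and no array could be left out.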
